A study of Bos taurus with 2 samples.

Results

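Bovine chromosome 29 carries CAPN1, the gene for the large subunit of mu-calpain, and the H3K4me3 peaks of this chromosome in muscle of tender and tough Angus steers are described here. All listed peaks on chromosome 29 were taken, and peaks of the tender and the tough group that overlapped by 1 bp or more were merged into regions. This gave 358 regions on chromosome 29 out of 14264 regions in all, or 2.51%, made from 339 of 12930 peaks of the tender library and 292 of 11535 peaks of the tough library. On the other 28 autosomes there were 13554 regions.

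The mark was mapped by ChIP-Seq in longissimus dorsi (LD), the loin muscle along the back, of purebred Angus steers of about 12 months of age. Steers were grouped by the Warner-Bratzler shear force (WBSF), the force that cuts a cooked meat core after 14 days of cold storage of the carcass, which was 6.77 ± 0.56 kg for tender and 19.93 ± 0.39 kg for tough steers (the labels do not say what the ± stands for). No treatment is stated for either group, and both were of the same breed, age and muscle. Chromatin of 4 tender steers was pooled for 1 library and chromatin of 5 tough steers for another, so that there were no replicates, differences between steers were not measured, and every difference between the groups below is a difference between 2 libraries without a test.

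H3K4me3 is the histone H3 with 3 methyl groups on its lysine 4. It is placed by the SET1 and MLL methyltransferase complexes at the start of genes that are transcribed or poised for it, and wide stretches of the mark are known from genes of cell identity. Mu-calpain is a calcium-dependent protease that cuts proteins of the myofibril after slaughter, and it is inhibited by calpastatin. ChIP-Seq of a pooled tissue reads many nuclei at once, so a mark in fewer nuclei and less of the mark in each nucleus cannot be told apart.

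In the RefSeq annotation of a later bovine assembly (ARS-UCD2.0) chromosome 29 had 641 protein-coding genes, and CAPN1 (gene 281661) was number 434 in their order. Its neighbours before it were ZNHIT2, FAU, which encodes a ubiquitin-like protein fused to a ribosomal protein, MRPL49, a protein of the mitochondrial ribosome, SYVN1, a ubiquitin ligase of the endoplasmic reticulum, and SPDYC. After it came SLC22A20, POLA2, a subunit of DNA polymerase alpha, CDC42EP2, DPF2, a subunit of the BAF chromatin remodelling complex, and TIGD3. The same chromosome carried PYGM, the glycogen phosphorylase of muscle, as number 409, ACTN3, the alpha-actinin of fast fibres, as number 491, the growth factor gene IGF2 as number 584, and TNNT3 and TNNI2, the troponins T and I of fast fibres, as numbers 586 and 589. The deposited peak lists state no genome build, so no peak was assigned to any of these genes and the LD label was not checked against marker genes. The positions below are those of the lists, counted from 1.

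Chromosome 29 was unevenly covered by H3K4me3. With the last peak end taken as its length, 51.4 Mb, it held 304 of its 358 regions (84.9%) beyond the midpoint, 248 (69.3%) in the last 25% of its length and 28 (7.8%) in the first 25%. The first region, chr29:642001-645800, had a peak in both groups, with 22 tender and 25 tough reads. The last, chr29:51356001-51358800, was a tough peak of 13 reads with no tender counterpart. Across 51 full bins of 1 Mb the median was 3 regions per bin and the mean 6.9, and 15 bins (29.4%) held none. Just 6 bins held 20 or more regions each, and together they had 201 regions (56.1%).

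The 3 fullest bins lay next to each other. The bin chr29:43000001-44000000 held 46 regions, with 43 tender and 40 tough peaks. The bin chr29:44000001-45000000 held 40 regions, with 42 tender and 36 tough peaks, and the bin chr29:45000001-46000000 another 40, with 35 tender and 34 tough peaks. Both libraries were thus dense in the same places. Peaks covered 15.4%, 15.3% and 12.8% of the base pairs of these bins, whereas they covered 2.21% of the whole chromosome. Over the 2494 full bins of all autosomes, 14 had 40 or more regions, and 3 of these 14 were on chromosome 29.

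**Figure D1:**
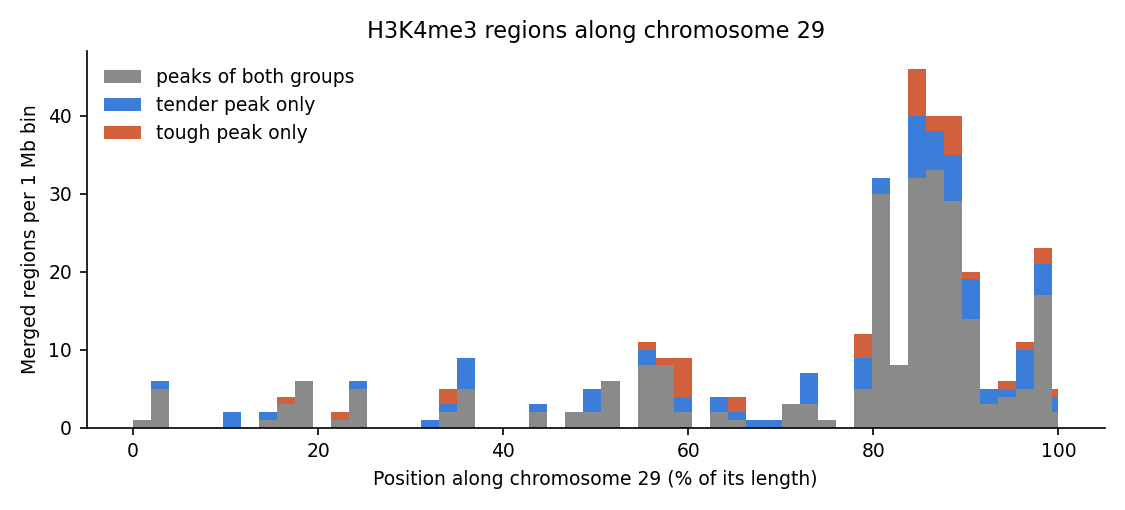
Number of merged H3K4me3 regions in each bin of 1 Mb (y axis) against the position along chromosome 29 in percent of its length (x axis), split into regions with peaks of both groups (grey), a tender peak only (blue) and a tough peak only (red), with the last, partial bin at the right end. The part before the midpoint holds few regions with empty stretches between them, the fullest bins, with 46, 40 and 40 regions, stand between 84 and 90% of the length, and the bins near 98% form a smaller second rise.

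The regions were grouped further into clusters, runs of 5 or more regions with no gap above 50 kb between neighbours. There were 14 clusters, which took in 186 regions (52.0%) on 3.3 Mb (6.4%) of the chromosome. The largest, chr29:44142801-44822600, had 35 regions over 679.8 kb, of which 24 were one tender peak against one tough peak, 4 were split, 5 were tender only and 2 tough only. A region was called split when one group or both had several peaks in it and each group had at least 1. The second, chr29:41567801-41892400, packed 25 regions into 324.6 kb, equal to 77.0 regions per Mb. It was covered by peaks over 30.3% of its length, and 5 of its regions were split. The third, chr29:42958801-43268600, had 20 regions over 309.8 kb, with 4 tough only and 2 tender only. Among these 3 clusters the second was the most compact, and it held no region that was tough only.

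Of the 14 clusters, 10 followed each other between chr29:41567801 and chr29:46594800. This block of 5.03 Mb made up 9.8% of the chromosome and held 178 regions (49.7%), 35.4 per Mb against 3.9 per Mb on the rest of the chromosome. Peaks covered 12.1% of the block and 1.13% of the rest. Regions in the block were also somewhat wider, with a median of 3200 bp against 2600 bp, and had higher summed scores, with a median of 121.1 against 89.4. Peaks of both groups were present in 77.5% of the regions of the block and in 62.8% of the regions outside it. The block was picked out after its values had been seen, and these figures describe it without a test. The other clusters were small: 1 of 5 regions at chr29:29989801-30115200, 1 of 5 regions at chr29:40534001-40618200, and a pair of 7 and 11 regions at chr29:50229801-50354800 and chr29:50686001-50966800.

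Outside the clusters, and mostly before the first of them, lay long stretches without a peak of either group. The median gap between neighbouring regions was 26.4 kb (quartiles 10 and 80.4 kb), and 89 of 357 gaps (24.9%) were under 10 kb. In contrast, 11 gaps were 1 Mb or longer and added up to 24.8 Mb, 48.3% of the chromosome. The longest was chr29:12947001-16642400 (3.70 Mb), followed by chr29:18685001-22263200 (3.58 Mb) and chr29:1682601-5034800 (3.35 Mb). Of the 11 long gaps, 7 lay before the midpoint, and the last of them ended at 40534000, before the dense block began. A gap means that no peak was called at this depth, not that the mark was absent.

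Chromosome 29 was then set against the other 28 autosomes. It held 6.97 regions per Mb, the 7th highest density of the 29 autosomes, where the median of the others was 5.56 and the range ran from 2.66 on chromosome 12 to 15.3 on chromosome 19. Its share of the autosomal regions was 2.57% on 2.05% of the autosomal length, a fold of 1.26 (95% exact binomial interval 1.13 to 1.39, for counting error only, as though the regions were independent). Among autosomes near it in length, chromosome 26 (51.7 Mb) had 5.52, chromosome 28 (46.2 Mb) had 5.63 and chromosome 27 (44.3 Mb) had 3.48 regions per Mb, whereas chromosome 23 (52.3 Mb), added after its value had been seen, had 8.86. The dense chromosomes 18, 19 and 25 had 12.6, 15.3 and 13.0 regions per Mb. Autosomes of about the same length thus lay on both sides of chromosome 29, and the densest autosomes were well above it.

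The unevenness along the chromosome set it further from the others than its density did. The share of regions in the last 25% of the length, 69.3%, was the highest of all 29 autosomes, where the median of the others was 35.8% and the next highest was 54.5% on chromosome 22. Chromosomes 18, 19 and 25 had 47.7%, 27.4% and 36.2% there, and chromosomes 26, 27, 28 and 23 had 26%, 36.4%, 23.5% and 19.2%. The share beyond the midpoint, 84.9%, was the highest too, ahead of 77.9% on chromosome 17. The variance of the regions per 1 Mb bin was 17.1 times their mean, against a median of 6.02 and a next highest of 13.0 on chromosome 25. The densest 5 Mb of chromosome 29 held 177 regions, second to 185 on chromosome 18, but as a share of the chromosome's regions this was 49.4%, and the next highest was 31.4% on chromosome 22. Quantities that use the last 25%, the midpoint and the densest 5 Mb were added after the map had been seen. A rank among 29 chromosomes is too coarse for a two-sided p past the usual threshold, and no p is given.

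**Figure D2:**
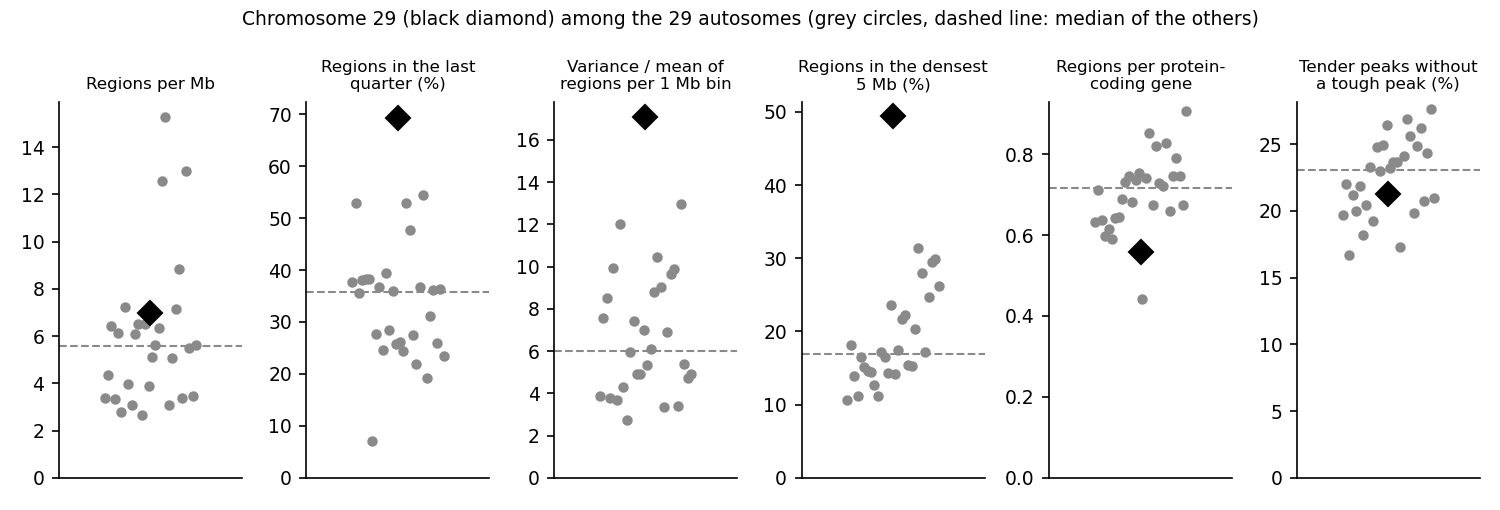
Values of 6 measures (y axes, each starting at 0, with the unit in its title) for the 29 autosomes, where grey circles are the other 28 autosomes spread sideways for visibility, the dashed line is their median and the black diamond is chromosome 29. Chromosome 29 lies inside the range of the others for regions per Mb (6.97) and for tender peaks without a tough peak (21.2%), above all others for the last 25% of the length (69.3%), the variance over the mean (17.1) and the densest 5 Mb (49.4%), and second lowest for regions per protein-coding gene (0.559).

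Other measures of chromosome 29 were less apart. In 24.9% of gaps under 10 kb and 52.0% of regions in clusters it ranked 5th in both, where the medians of the others were 15.8% and 23.6% and chromosome 25 was first with 32.0% and 68.6%. Long gaps took 48.3% of its length, the 8th highest share, and its longest gap of 3.70 Mb ranked 23rd, below the median of 4.65 Mb. Regions of 5 kb or more made up 11.7%, the third highest share after a maximum of 13.0% on chromosome 19. Set against the RefSeq gene count, which comes from another assembly, chromosome 29 had 0.559 regions per protein-coding gene, the second lowest after 0.441 on chromosome 15 and below a median of 0.716. Thus the chromosome was above the median in regions per length and low in regions per gene.

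The regions themselves had a median width of 2800 bp (quartiles 2000 and 4000 bp), from 400 to 14800 bp. There were 42 regions of 5 kb or more, of which 25 lay in the dense block, and 10 regions under 1 kb. The 10 regions with the highest summed score were named for a closer description, where the score of a peak is the value that the peak caller SICER gives for reads above the genome's mean. For the same number of reads the score is lower in a library with more reads, and the tough library had 1.17 times the reads per window of the tender, so scores of the groups are not on the same footing.

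The highest summed score, 959.1, belonged to chr29:44272001-44283800 (11800 bp), inside the largest cluster. Its tender scores added up to 573.7 and its tough scores to 385.5, and each library had a pair of peaks there. In the tender library a peak of 1600 bp (score 39.0) was followed by one of 9200 bp (534.7), the highest-scoring tender peak of the chromosome. In the tough library a peak of 9000 bp (345.7), the highest-scoring tough peak of the chromosome, was followed by one of 2200 bp (39.7), so that the break fell at opposite ends in the libraries. On the scale of the autosomes this was no extreme, since the top region of chromosome 29 ranked 9th, and the top region of chromosome 25 reached 3497.

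From the same cluster came 3 more of the 10. The region chr29:44417401-44426400 (9000 bp) scored 414.1 in the tender library, as peaks of 4600 and 3800 bp, and 273.9 in the tough library as a single peak of 7800 bp. At chr29:44457601-44463800 the tender peak was 6200 bp long with a score of 285.5, while the tough peak was shorter, 3600 bp, with a higher score of 311.5. At chr29:44639801-44645800 both peaks had the same start and end over 6000 bp, with a tender score of 307.6 and a tough score of 254.8. The widest region of the chromosome, chr29:41593001-41607800 (14800 bp), was also among the 10, with summed scores of 251.6 and 242.2. It lay in the second cluster as a low stretch, with 19 tender and 33 tough reads over 4200 and 7800 bp, followed by a denser part that scored 210.7 and 174.8.

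Further regions among the 10 were chr29:43609401-43619600 (10200 bp), with a tender score of 291.2 and a tough score of 261.4, and chr29:50229801-50238600 (8800 bp) near the end of the chromosome, with 277.6 and 188.0. In both a single tender peak overlapped a pair of tough peaks. The remaining 3 lay outside any cluster. Region chr29:36778201-36784200 scored 305.2 in tender and 264.8 in tough muscle. Region chr29:12657401-12660800 scored 264.4 and 235.2 over 3400 bp, and stood between gaps of 76.2 and 157.8 kb in the sparse first 25% of the chromosome. Region chr29:26549801-26554000 scored 207.2 and 266.9. In 8 of the 10 the tender score was higher, as it was in 64.9% of the one-to-one pairs of the chromosome and 63.6% of those of all chromosomes. The 5 widest regions, from 8800 to 14800 bp, were all split and all among the 10 highest-scoring.

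**Figure D3:**
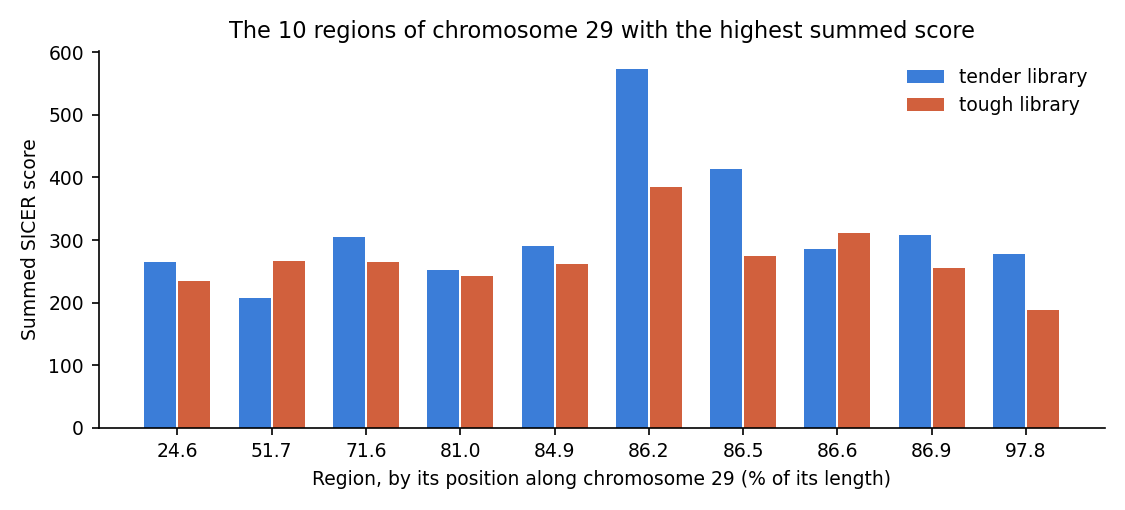
Summed SICER score (y axis, no unit) in the tender (blue) and the tough (red) library for the 10 regions of chromosome 29 with the highest score over both, ordered by position in percent of the chromosome's length (x axis, not to scale). Each bar is 1 pooled library without error, the tender bar is higher in 8 of the 10 regions, and the pair at 86.2% (573.7 and 385.5) is the highest.

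Groups differed first in the number and width of peaks. The tender library had 339 peaks with a median width of 2000 bp (quartiles 1400 and 3000 bp) and the tough library 292 with a median of 2800 bp (2000 and 3800 bp). The ratio of tender to tough peaks, 1.16, was the 6th highest of the autosomes, where the others had a median of 1.12 (range 1.07 to 1.19). The tough median of 2800 bp was the highest of the autosomes, shared with chromosome 19, and the others had a median of 2400 bp. Tender peaks covered 805.6 kb and tough peaks 887.8 kb, so the group with fewer peaks covered more of the chromosome. The same held for the whole lists, with 28400.6 kb for tender and 31301.4 kb for tough peaks. By 1 Mb bins, the tender library had more peaks in 23, the tough library in 6, and both had the same number in 7 of the bins that held any. This tally is not given here for the other autosomes.

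Scores up to 180 could be turned back into whole numbers of reads, which was done for 310 of 339 tender peaks and 279 of 292 tough peaks. Most of these counted peaks rested on few reads, with a median of 20.5 per tender peak (range 8 to 62) and 24 per tough peak (range 11 to 70). Peaks with scores above 180 are missing from these medians and ranges, which therefore leave out the strongest peaks, a larger share of the tender than of the tough ones. The median score was 56.8 (quartiles 35.2 and 110.3) and 60.8 (39.1 and 104.0), respectively.

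Peaks without a counterpart in the other group were a minority in both. Of the 339 tender peaks on chromosome 29, 72 overlapped no tough peak, or 21.2% (95% Wilson interval 17.2 to 25.9), where the share over all tender peaks was 21.9%. Of the 292 tough peaks, 35 overlapped no tender peak, or 12.0% (8.7 to 16.2), where the share over all tough peaks was 13.9%. Both shares were close to those of the whole lists, which include chromosome 29, and each of those lies within the interval of chromosome 29. The intervals are for counting error only, as though the peaks were independent, and are no test. Among the autosomes the tender share ranked 18th and the tough share 24th.

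The unique peaks were the weak ones. Unique tender peaks had a median of 13 reads (range 9 to 24) and a median score of 32.9. Shared tender peaks had a median of 24.5 reads, over the 238 of 267 counted, and a median score of 72.8. Unique tough peaks had a median of 14 reads (range 11 to 24) and a score of 32.8. Shared tough peaks had 27 reads, over the 244 of 257 counted, and a score of 68.8. All unique peaks were counted, whereas the strongest shared ones were not. When the whole tender list was put into 4 equal classes by score, unique peaks on chromosome 29 were 41 of 82 in the lowest class, 29.3% and 5.8% in the next, and 0 of 96 in the highest, which allows a share of up to 3.12%. In the tough list they were 39.3%, 13.5%, 1.5% and 0 of 91, which allows up to 3.30%. Over the whole lists the shares by class were 60.3%, 23.9%, 3.4% and 0.2% for tender and 41.9%, 12.1%, 1.5% and 0.1% for tough peaks. Every peak of chromosome 29 in the highest class thus had a counterpart.

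By score, the first unique tender peak was chr29:37554801-37557000 with 24 reads (score 68.1). It was followed by chr29:43552201-43556200 with 24 reads (64.5), chr29:37813401-37815200 with 23 (62.6), chr29:47037401-47039400 with 21 (59.7) and chr29:50352401-50354800 with 22 (57.5). The pair near 37.6 and 37.8 Mb lay in a bin with 7 tender and 3 tough peaks. The first unique tough peak was chr29:30254801-30257000 with 22 reads, in a bin with 7 tough and 4 tender peaks. After it came chr29:17852001-17857600 with 23 reads (50.9), chr29:43035601-43040800 with 24 (49.6), chr29:44817601-44822600 with 23 (48.2) and chr29:45690001-45694000 with 22 (46.3). These last 4 were wide for their reads, 4000 to 5600 bp. Clusters held 40.3% of the tender only, 45.7% of the tough only and 54.1% of the one-to-one regions. Their 95% Wilson intervals were 29.7 to 51.8, 30.5 to 61.8 and 47.7 to 60.4. Of the split regions, clusters held 16 of 20, with an interval wholly above that of the tender only regions. The intervals treat regions as independent, although neighbours define a cluster, and overlap between intervals does not show equal shares. A difference between these kinds was not tested.

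In 20 regions the peaks of the groups did not match one to one. In 14 of them a pair of tender peaks overlapped a single tough peak. In 4 a pair of tough peaks overlapped a single tender peak, and in 2 each group had a pair. Counts of this kind are not given here for the other autosomes, so they do not set chromosome 29 apart. All 20 lay in the last 25% of the chromosome, where 70.1% of its one-to-one regions lay. Of the 20, 16 were in clusters, and their median width was 6400 bp. An example is chr29:49853001-49860600, where tender peaks of 3400 and 1600 bp with 19 and 14 reads lay inside a tough peak of 7600 bp with 46 reads. The example was chosen after its values had been seen.

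Widths were compared within the 231 regions that had 1 peak of each group. A longer tough peak was found in 139 (60.2%, against 59.6% over the pairs of all chromosomes). The tender peak was longer in 75 (32.5%, against 30.5%), and 17 pairs were of equal width. The median ratio of tough to tender width was 1.14 (quartiles 0.88 and 1.6), and over the pairs of all chromosomes it was 1.15. The tough peak was 2-fold or more wider in 30 pairs, or 13.0%, where the share over all 9474 pairs was 12.9%. The tender peak was 2-fold or more wider in 6 pairs, or 2.6%, where the share over all pairs was 3.26%. Chromosome 29 was thus near the whole lists in both directions. In the dense block 12 of 124 pairs (9.7%) were 2-fold wider in the tough library, and on the rest of the chromosome 18 of 107 (16.8%).

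Few pairs began and ended on the same windows of 200 bp in both libraries. Both ends were shared in 9 pairs, the start alone in 33, the end alone in 31 and neither in 158. Over all 9474 pairs these numbers were 425, 1496, 1464 and 6089, so that neither end was shared in most pairs there too. The tough peak reached beyond the tender one at both ends in 58 pairs (25.1%), the same share as over all pairs (25.1%), and the tender peak beyond the tough one in 16 (6.9%, against 8.8% over all pairs). The largest width ratio, 6.14, was that of a tender peak of 1400 bp with 21 reads inside the tough peak chr29:51313201-51321800, which had 8600 bp and 40 reads. Next came tough peaks at chr29:44300001-44304800 (4800 against 1000 bp), chr29:43031601-43034800 (3200 against 800 bp), chr29:44676401-44682000 (5600 against 1600 bp) and chr29:49837601-49843600 (6000 against 1800 bp). In the last of these the tender peak had 39 reads and the tough peak 37, so the reads of the tough library were spread over a longer stretch.

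The other way, the largest ratio was 3.0, for the tender peak chr29:32411801-32415400 of 3600 bp against a tough peak of 1200 bp, with 15 and 11 reads. It was followed by tender peaks at chr29:44541801-44545800 (4000 against 1400 bp), chr29:43916801-43920600 (3800 against 1600 bp), chr29:50899801-50904800 (5000 against 2400 bp), chr29:40929201-40932800 (3600 against 1800 bp) and chr29:41284201-41287000 (2800 against 1400 bp). The pair at 44.5 Mb was strong in both groups, with scores of 220.0 for the tender and 198.5 for the tough peak. The 6 pairs thus included strong as well as weak peaks.

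**Figure D4:**
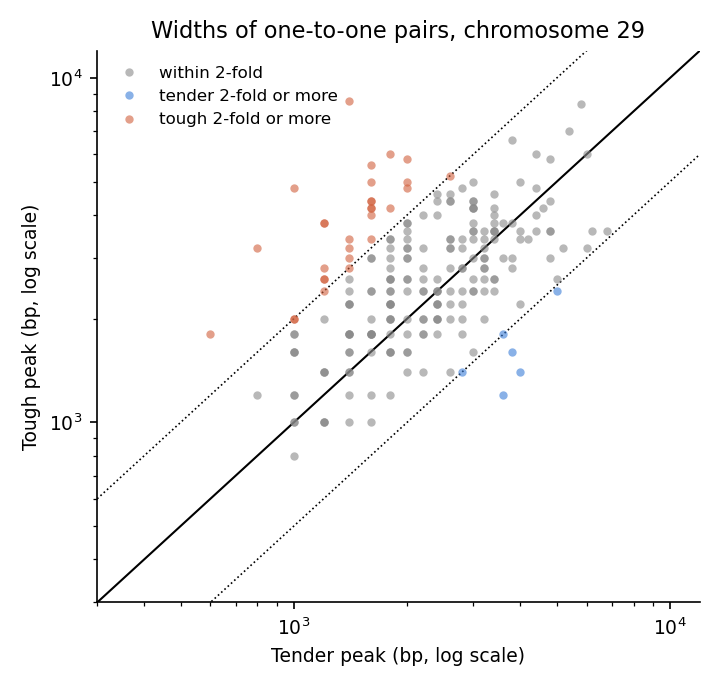
Width in bp of the tough peak (y axis, log scale) against that of the tender peak (x axis, log scale) for the 231 one-to-one pairs of chromosome 29, with the line of equal width (solid) and lines of 2-fold difference (dotted); darker points are several pairs at the same place. The 30 pairs with a 2-fold wider tough peak (red) sit at tender widths of 2600 bp or less. The 6 with a 2-fold wider tender peak (blue) sit at tender widths of 2800 bp or more. Tender width is part of the ratio by which these pairs were chosen, so this separation follows in part from the choice.

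Reads were compared in the 209 pairs in which both scores were at most 180. In 13 of the 22 other pairs the tender score alone was above that limit, in 9 both were, and in none the tough score alone, so that pairs strong in the tender library are missing here. The median pair had 26 tender and 25 tough reads. Divided by the ratio of reads per window (1.17), the median ratio of tough to tender reads was 0.86 (quartiles 0.7 and 1.07, range 0.43 to 1.91), the same as over all pairs. Scaled instead by all reads inside the pairs, the median was 1.03, on the other side of 1. The direction of the typical pair therefore depended on the scaling.

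By reads per depth, 7 pairs had 2-fold or more in the tender library, or 3.3% of the 209, where the share over all pairs was 6.05%. No pair had 2-fold or more in the tough library, where the share over all pairs was 0.759%. With the scaling by reads inside the pairs 0 such pairs had more tender and 3 had more tough reads. The share of pairs with more tender reads was the second lowest of the autosomes, between 3.21% on chromosome 28 and a median of 6.09%. Of the 7 pairs, 6 lay in the dense block, out of 112 counted pairs there, and 1 on the rest of the chromosome, out of 97.

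The pair with the largest fold, 2.33 (95% exact interval 1.16 to 4.94, for counting error only), was chr29:43905401-43906600, with 26 tender and 13 tough reads over nearly the same window. The most reads were in chr29:50337001-50340400, with 53 tender and 28 tough reads and a fold of 2.21 (1.37 to 3.62). The pair chr29:43148001-43150400 had 36 and 19 reads, and both of its peaks were 2400 bp long. The others were chr29:44325801-44331800 with 25 and 13 reads, chr29:45462001-45465000 with 32 and 17, chr29:45012401-45015200 with 29 and 16, and chr29:43916801-43920600 with 21 and 12. The last had a fold of 2.04 with an interval from 0.96 to 4.55 that includes 1. All of these pairs were picked by their fold, so the intervals of the others are no test of a difference. Just under the limit was chr29:9952201-9955200, with 54 and 32 reads and a fold of 1.97. In the tough direction the highest ratio was 1.91 (0.96 to 4.01), at chr29:37041401-37042800 with 13 tender and 29 tough reads.

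**Figure D5:**
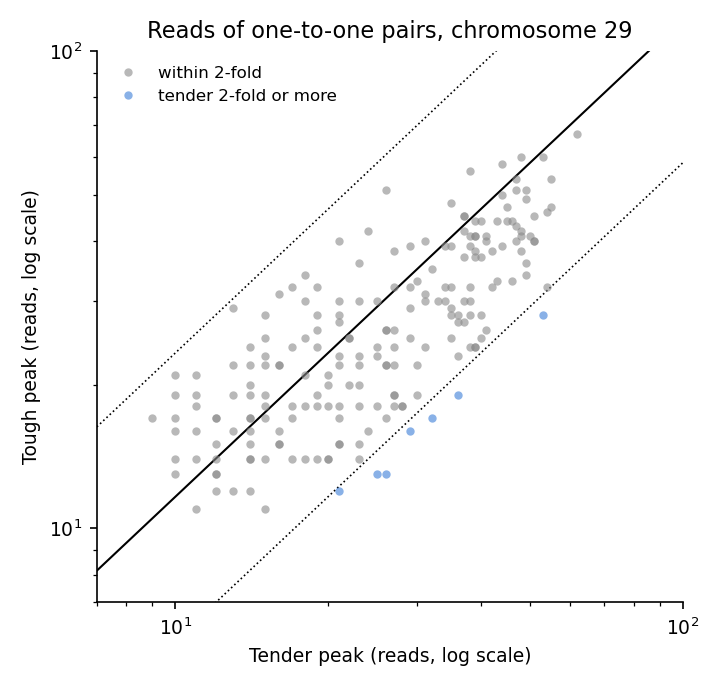
Reads of the tough peak (y axis, log scale) against reads of the tender peak (x axis, log scale) for the 209 one-to-one pairs of chromosome 29 whose reads could be counted, with the line expected from the reads per window of the libraries (solid) and lines 2-fold from it (dotted). The 7 pairs in blue lie at or beyond the lower dotted line, no pair reaches the upper one, and 145 of the 209 pairs lie below the solid line.

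For each library a second list was deposited, which is numbered on another build and places the end of chromosome 29 at 51.9 instead of 51.4 Mb. It gave much the same picture, with 349 regions, 71.1% of them in the last 25% of the length, 45 regions in the fullest bin, 12 gaps of 1 Mb or more and 13 clusters. It had 68 unique tender peaks and 42 unique tough peaks. The second list was looked at after the first, comes from the same libraries and is no replicate.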

How the data were processed

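H3K4me3 ChIP-Seq peaks of LD were analysed for 1 pooled tender and 1 pooled tough library, grouped by the sample titles. According to the methods, the authors digested the chromatin with micrococcal nuclease, aligned reads to bosTau4 with Maq, allowing 1 mismatch, removed duplicate and multiply aligned reads, and called peaks with SICER (version 1.1 per the labels) with a window of 200 bp, a gap of 400 bp and an E-value of 100. No control library is named. The deposited lists hold a SICER score per peak, which adds up, over the windows of the peak, the negative natural log of how probable their read numbers are under a Poisson model. For each library there were 2 lists. The one used here, of 12930 tender and 11535 tough peaks, runs to 148.8 Mb on chromosome X and states no build. The other, of 12452 and 11395 peaks, runs to 87.9 Mb and, by its number of peaks, is the peak set of the bosTau4 alignment in the methods, so the list used here is not that set and its aligner settings are not given in the sources used here.

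The mean reads per window, 0.157 for tender and 0.182 for tough, were first solved from peaks a single window long. They were then refined to fit the lower-scoring peaks of any width. Read numbers followed from every score up to 180 within 1.5e-09, each by 1 number, and from none when the mean was raised by 0.1%. As the means were fitted to part of these scores, this is no independent check. Total reads per library were not used here. Intervals cover counting error only. With 1 library per group no test was made, and chromosome 29 was ranked among the autosomes. Pairs were called at 2-fold, by reads with 20 or more in the pair. The regions named are the first and last, the 10 highest by summed score, the 5 widest, the 5 highest unique peaks of each group, every pair called by reads, the 5 largest width ratios each way (with ties), the 3 fullest bins, largest clusters and longest gaps. The members, lists and rules were chosen with earlier results of these data known. Scripts ran in Python 3.11.15 (numpy 2.4.6, pandas 2.3.3, scipy 1.17.1, matplotlib 3.10.9) and were tested on simulated data. The alternatives were other overlaps, score minima, clusters, bins, fold limits and scalings, each group alone and the other lists. Genes and sequences were left out because the build of the list used is not given, and gene names come from RefSeq on ARS-UCD2.0.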

Additional observations from a re-analysis of the deposited data

How the results depend on the processing

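Of 75 alternative values for 14 results, 49 stayed within the spread set for them, 25 moved and 1 reversed. Only the fold over the share of length and the median width and read ratios could be labelled reversed. Counts of pairs whose direction changed were labelled moved. The share of regions in the last 25% of the length ran from 69.3 to 71.9% and, like the variance over the mean, kept the first rank among the autosomes in every alternative run for it. The variance over the mean was 56.8 in bins of 5 Mb and 9.9 in bins of 500 kb, and the fold over the share of length was 1.39 by base pairs covered. Regions in clusters numbered 84 with neighbours up to 20 kb apart and 85 with scores of at least 2 times the lowest.

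The numbers of unique peaks, of pairs past a width limit and of pairs past a read limit all moved with their definitions. Unique tender peaks were 141 with a reciprocal overlap of 50% and 14 with scores of at least 2 times the lowest. Unique tough peaks were 81 with an overlap of 50% of their own length, 94 with the reciprocal overlap and 2 with the higher score minimum. Pairs with a wider tender peak were 3 with the higher minimum, 20 at 1.5-fold and 1 at 3-fold, and those with a wider tough peak were 19, 69 and 9. The median read ratio of 0.86 became 1.03 when scaled by all reads in the pairs. Pairs with more tender reads were then 0, and 4 with 40 or more reads in the pair, 43 at 1.5-fold, 0 at 3-fold and 11 by the ratio of scores. Pairs with more tough reads were 3 when scaled by all reads in the pairs, 12 at 1.5-fold, 2 by the ratio of scores and 3 in the other deposited lists. The cause of these shifts was not tested. By construction, fewer peaks pass a higher minimum, and a changed limit changes the number of pairs past it.

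The median peak of chromosome 29 has 20.5 tender or 24 tough reads, and the counting interval of 1 of the 7 pairs with 2-fold more tender reads includes 1. The lists hold called peaks alone, and reads of the other library at a unique peak were not used here. The other lists were added once the first had been examined. No paired analysis was possible because each group has 1 library, and for the same reason leaving out a library gives no comparison.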
